A study of Homo sapiens with 12 samples.

Results

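The genes described here are the matrix metalloproteinases (MMP), the transmembrane ADAM proteins, the secreted ADAMTS proteases and the tissue inhibitors of metalloproteinases (TIMP). They were taken by symbol alone, as every gene named MMP, ADAM or ADAMTS followed by a number, together with TIMP1 to TIMP4. The rule itself uses no measured value, but it was chosen with earlier results of these data known. The rule finds 67 of the 43236 genes counted, of which 22 are MMPs, 22 ADAMs, 19 ADAMTSs and 4 TIMPs. A test was possible for 40 of the 67, those that passed a filter on low counts, as did 15979 genes in all.

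RNA was sequenced from the osteosarcoma cell line HOS-MNNG (also written MNNG/HOS), a chemically transformed derivative of the HOS line, and each library therefore comes from the same line. Cells received either the solvent DMSO or NXP800, a small molecule first made to block the HSF1 pathway, at 300 nM, and were harvested at 6 h or at 24 h. The 4 groups of 3 libraries are DMSO 6 h, NXP800 6 h, DMSO 24 h and NXP800 24 h, and each NXP800 group is set against the DMSO group of its own time. The libraries held 30810614 to 31947656 counts on genes. Reads outside annotated genes made up 6.66 to 8.14% of the 6 h libraries and 2.73 to 3.67% of the 24 h libraries, so time and library set cannot be told apart wherever the times are compared. The labels do not say whether replicates are separate cultures, so p-values cover the spread between these libraries, which may be technical. The mesenchymal marker *VIM* was at 3338 to 5891 CPM (counts per 1000000 counts on genes). The osteoblast markers *COL1A1* (143 to 566 CPM) and *RUNX2* (20.7 to 42.5 CPM) were present in every library. *SP7*, *IBSP* and *BGLAP*, also typical of osteoblasts, held at most 2 counts in a library, *ALPL* at most 7 and *COL1A2* at most 12. *CD68*, listed for macrophages (60.9 to 154 CPM), and the epithelial *EPCAM* (5.59 to 10.2 CPM) were also present in every library. The leukocyte marker *PTPRC* held at most 5 counts and the epithelial *CDH1* at most 2.

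Metalloproteinases of these families use a zinc ion to cut proteins outside the cell or at its surface. MMPs degrade collagens, gelatin and other matrix proteins and are made as inactive precursors. ADAMs release the outer parts of membrane proteins such as growth factors, cytokines and Notch, although several of them lack protease activity and serve in adhesion. ADAMTSs process procollagens and cut proteoglycans such as versican and aggrecan, and the TIMPs bind the active site of many of these enzymes. In bone, *MMP13*, *MMP14* and *MMP2* take part in matrix turnover, and MMPs are widely studied in the invasion of osteosarcoma.

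Promoter sequence is shown for 3 members whose behaviour differed: *MMP10*, nearly absent with DMSO and present with NXP800, *ADAMTS6*, called in opposite directions at the 2 times, and *ADAMTS12*, called lower at both. Each run is the 250 bases before the annotated start, read 5′ to 3′ on the gene's strand (the minus strand for all 3) from RefSeq, build GRCh38.p14. Capitals mark a match to TGANTCA, where one was found. This is the site of AP-1 factors such as c-Jun with any letter (N) allowed in the middle. The usual AP-1 site has C or G there, and both marked matches have A. The places are chr11:102780629-102780878 for *MMP10*, chr5:33891991-33892240 for *ADAMTS12* and chr5:65481921-65482170 for *ADAMTS6*.
MMP10: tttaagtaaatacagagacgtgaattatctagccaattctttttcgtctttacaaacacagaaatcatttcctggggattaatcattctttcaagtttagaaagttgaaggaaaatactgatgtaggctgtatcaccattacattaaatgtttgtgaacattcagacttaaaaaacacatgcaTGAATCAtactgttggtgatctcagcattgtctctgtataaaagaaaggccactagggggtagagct
ADAMTS12: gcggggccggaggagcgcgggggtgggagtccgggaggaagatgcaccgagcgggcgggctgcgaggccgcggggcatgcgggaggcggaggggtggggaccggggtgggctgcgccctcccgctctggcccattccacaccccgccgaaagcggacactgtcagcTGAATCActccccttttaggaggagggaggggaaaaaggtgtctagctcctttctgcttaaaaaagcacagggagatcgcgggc
ADAMTS6: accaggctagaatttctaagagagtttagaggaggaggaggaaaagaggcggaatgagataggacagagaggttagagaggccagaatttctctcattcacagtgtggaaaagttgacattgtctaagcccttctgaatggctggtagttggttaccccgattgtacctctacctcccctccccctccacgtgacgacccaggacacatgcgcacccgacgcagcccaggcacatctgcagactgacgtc

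The match lay 67 to 61 bases before the start in *MMP10* and 84 to 78 bases before it in *ADAMTS12*, with the same 7 letters in both, one a gene with more reads under NXP800 and the other with fewer. Windows of 250 bases before to 50 after the start were found for 38 members (39 windows, 25 of the tested genes), and 4 of the 39 windows (10.3%) held TGANTCA on either strand, against 7.71% of all 35116 windows. The other 2 are those of *MMP7* and *MMP20*, which were not tested. Members without a window were not searched, so a member not named here may still hold a match. CCACG, part of the ER stress element, was in 18 of 39 (46.2%; 38.1% of all windows), GAANNTTC, the heat shock element core, in 3 (7.69%; 6.77%), and TGATGNAA, the C/EBP-ATF element, in 0 of 39 (3.62% of all windows). A match describes the letters only.

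The members were called about as often as other genes, and more of the called members were lower than higher. At 6 h, 21 of the 40 tested members passed the edgeR quasi-likelihood test at an adjusted p below 0.05 (52.5%; 52.8% of all genes tested). Of these, 7 were higher with NXP800 (25% of all genes tested were called higher) and 14 lower (27.8% of all genes). At 24 h, 24 members were called (60%; 56% of all genes), 8 of them higher (27.5% of all genes) and 16 lower (28.6% of all genes). Changes of at least 2-fold among the called were seen in 6 members at 6 h (15%; 11.2% of all genes) and in 10 at 24 h (25%; 14% of all genes), and 7 of those 10 were MMPs. The median log2 fold change of the members was -0.19 at 6 h and -0.18 at 24 h, against -0.05 and 0.00 for all genes. The 2 groups of libraries did not overlap for 27 members at 6 h and 22 at 24 h, where the share over all genes was 62% and 59.1%. Of the members called, *MMP11* passed the filter only through its DMSO libraries, where it was high, and it is kept in all counts here. *MMP10* could be tested only because it was high with NXP800 at 6 h. Without *MMP10*, 20 of 39 were called at 6 h (6 higher, 14 lower) and 23 of 39 at 24 h (7 higher, 16 lower), with 5 and 9 of at least 2-fold. *MMP11*, called lower at both times and by at least 2-fold at 24 h, is still in these recounts. A filter of at least 10 counts in every library leaves out both genes and also *MMP13*. With it, 19 of 34 members were called at 6 h (6 higher, 13 lower, beside 27.2% and 30.7% of all genes). At 24 h 21 of 34 were called (7 higher, 14 lower, beside 30% and 30.9%). Over all 40 tested members, the counts were 27 (11 higher, 16 lower) and 28 (11 higher, 17 lower) once the replicate number entered the fit as a block, where the share of all genes called also rose, to 62.3% and 65.2%. In a fit of the 6 libraries of the 6 h time alone the split was 11 higher and 13 lower (29.2% and 27.9% of all genes), so the excess of lower calls at 6 h depends on the fit.

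**Figure D1:**
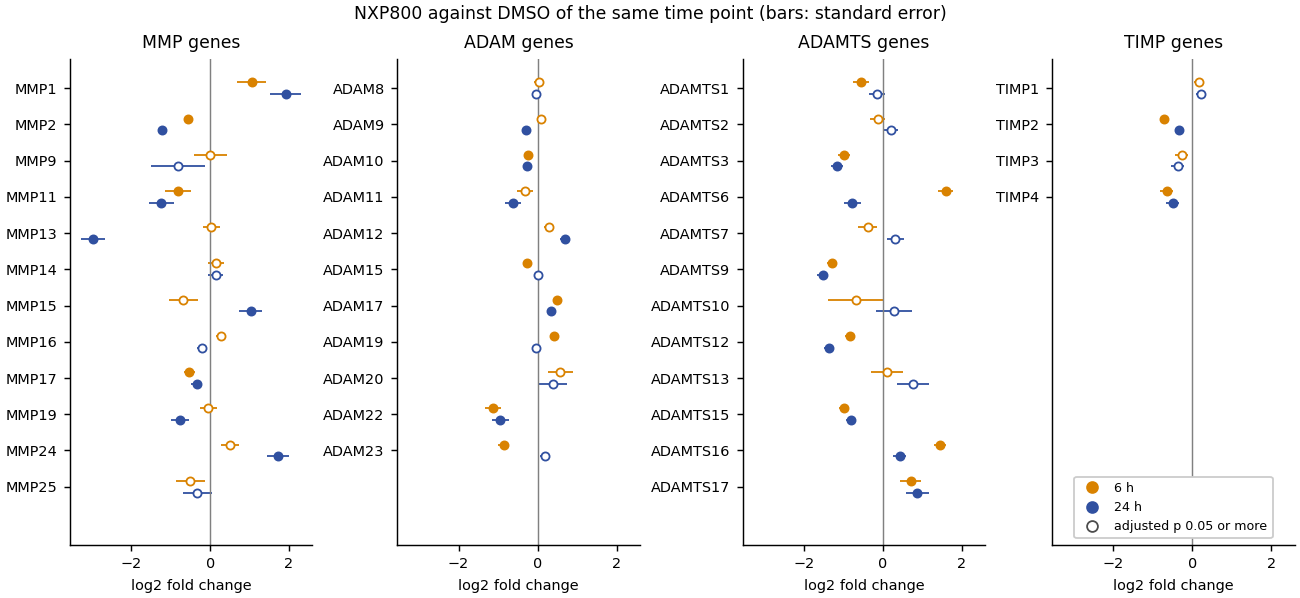
The log2 fold change of NXP800 against DMSO (x axis) is drawn for 39 of the 40 tested genes in 4 panels, in orange for 6 h and in blue for 24 h, with bars of 1 standard error and open circles for an adjusted p of 0.05 or more. MMP10 is left out because its DMSO libraries hold at most 3 counts. MMP13 at 24 h lies farthest to the left, at -2.96, and ADAMTS6 is on the right at 6 h and on the left at 24 h.

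Of the members called at both times, only *ADAMTS6* was called in opposite directions. *ADAM17*, *ADAMTS16*, *ADAMTS17*, *MMP1* and *MMP10* (tested only through its high libraries) were called higher at both, and *ADAM10*, *ADAM22*, *ADAMTS3*, *ADAMTS9*, *ADAMTS12*, *ADAMTS15*, *MMP2*, *MMP11*, *MMP17*, *TIMP2* and *TIMP4* lower at both. Of the latter, *MMP11* was tested only through its DMSO libraries. *ADAMTS6* was called higher at 6 h and lower at 24 h. A further 4 members were called at 6 h and 7 at 24 h alone, and 12 at neither time. Of all genes tested, 52.8% were called at 6 h and 56% at 24 h. The share of all genes with each of these patterns was not counted, so the patterns are not read as particular to the members.

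By length, the most abundant member was *TIMP1*, at a mean of 81.7 CPM per kb of exon over the 12 libraries. *TIMP3* (32.5 CPM per kb), *MMP2* (32.0), *MMP14* (31.6) and *TIMP2* (29.9) followed, and no test was run between genes. That order holds for the pooled mean only: per kb, *MMP2* was at 47.6 CPM in the DMSO 24 h group, ahead of *TIMP2* (37.9), *TIMP3* (36.4) and *MMP14* (35.6), and at 20.4 CPM with NXP800 at 24 h, behind *MMP14* (39.3). *ADAM9* (13.2 CPM per kb), *ADAM19* (10), *ADAM8* (7.52), *ADAM10* (5.47) and *ADAM15* (4.98) led the ADAMs, and *ADAMTS12* (2.85 CPM per kb) and *ADAMTS16* (1.41) the ADAMTSs. In bulk RNA, fewer cells that express a gene and less RNA per cell cannot be told apart.

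Among the collagenases, which cut fibrillar collagen, *MMP1* rose at both times and *MMP13* fell at 24 h. *MMP1* (chr11:102789919-102798160) stood at 1.55, 1.92 and 1.82 CPM in the DMSO libraries at 6 h and at 3.87, 3.55 and 3.59 CPM with NXP800. At 24 h the DMSO libraries held 2.24, 0.572 and 0.549 CPM and the NXP800 libraries 6.60, 2.88 and 3.29 CPM. Every NXP800 library was above every DMSO library of its time, and at 24 h replicate 1 was the highest in both groups. *MMP1* rose by 1.05 ± 0.37 (SE) on the log2 scale at 6 h (edgeR adjusted p = 0.0259) and by 1.91 ± 0.40 after 24 h (adjusted p = 0.000661). Without DMSO 24 h replicate 1 the 24 h value was 2.91. The 6 h call was lost with DESeq2 (adjusted p = 0.0935) and without DMSO 6 h replicate 1, 2 or 3 or NXP800 6 h replicate 1 (edgeR adjusted p from 0.0503 to 0.0801).

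*MMP13* (chr11:102942995-102955732), the collagenase of cartilage and growing bone, was at 4.82, 4.89 and 4.07 CPM with DMSO and at 4.36, 5.60 and 4.11 CPM with NXP800 at 6 h. At 24 h it was at 4.38, 3.53 and 3.19 CPM with DMSO and at 0.892, 0.314 and 0.223 CPM with NXP800. The groups overlapped at 6 h and were far apart at 24 h, where the mean with NXP800 was 0.129 of that with DMSO. The NXP800 mean leans on replicate 1, and without it the log2 fold change at 24 h was -3.76. The change on the log2 scale was 0.03 ± 0.22 (edgeR adjusted p = 0.916) and then -2.96 ± 0.31 (adjusted p = 6.86e-07), and the difference of the 2 responses was -2.99 ± 0.39 (adjusted p = 4.66e-05).

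The stromelysins *MMP3* and *MMP10*, which cut proteoglycans and other non-collagen matrix and can activate other MMPs, had reads almost only with NXP800. *MMP10* (chr11:102770502-102780628) had 1, 1 and 1 counts in the DMSO libraries at 6 h and 38, 39 and 37 counts with NXP800. At 24 h it had 2, 0 and 3 counts with DMSO and 19, 7 and 12 with NXP800. The ratio of the summed counts, scaled for library size, was 37.4 at 6 h (95% interval 12.5 to 184) and 7.21 at 24 h (2.83 to 23.5), where the intervals cover counting error only. Of the 5 DMSO counts at 24 h, 3 are in replicate 3. *MMP10* was called at both times (edgeR adjusted p = 9.43e-07 and 0.000767), and it passed the filter through its NXP800 6 h libraries alone, so it could only be tested because it was high there. Even there it reached only 1.14 to 1.19 CPM. *MMP3* did not pass the filter: it had 0, 0 and 1 counts against 11, 5 and 7 at 6 h, a ratio of 22.6 (3.67 to 932), and 1, 0 and 0 against 6, 2 and 1 at 24 h.

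These 4 genes lie in one cluster on chromosome 11, in the order *MMP7*, *MMP20*, *MMP27*, *MMP8*, *MMP10*, *MMP1*, *MMP3*, *MMP12* and *MMP13* by RefSeq coordinates. The neighbours *MMP10*, *MMP1* and *MMP3* had more reads with NXP800 at both times, and *MMP13*, at the end of the cluster, did not rise at 6 h and fell at 24 h. *MMP3* was not tested, and at 24 h its counts were few and its groups overlapped. The other 5 genes of the cluster were also too low to be tested.

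**Figure D2:**
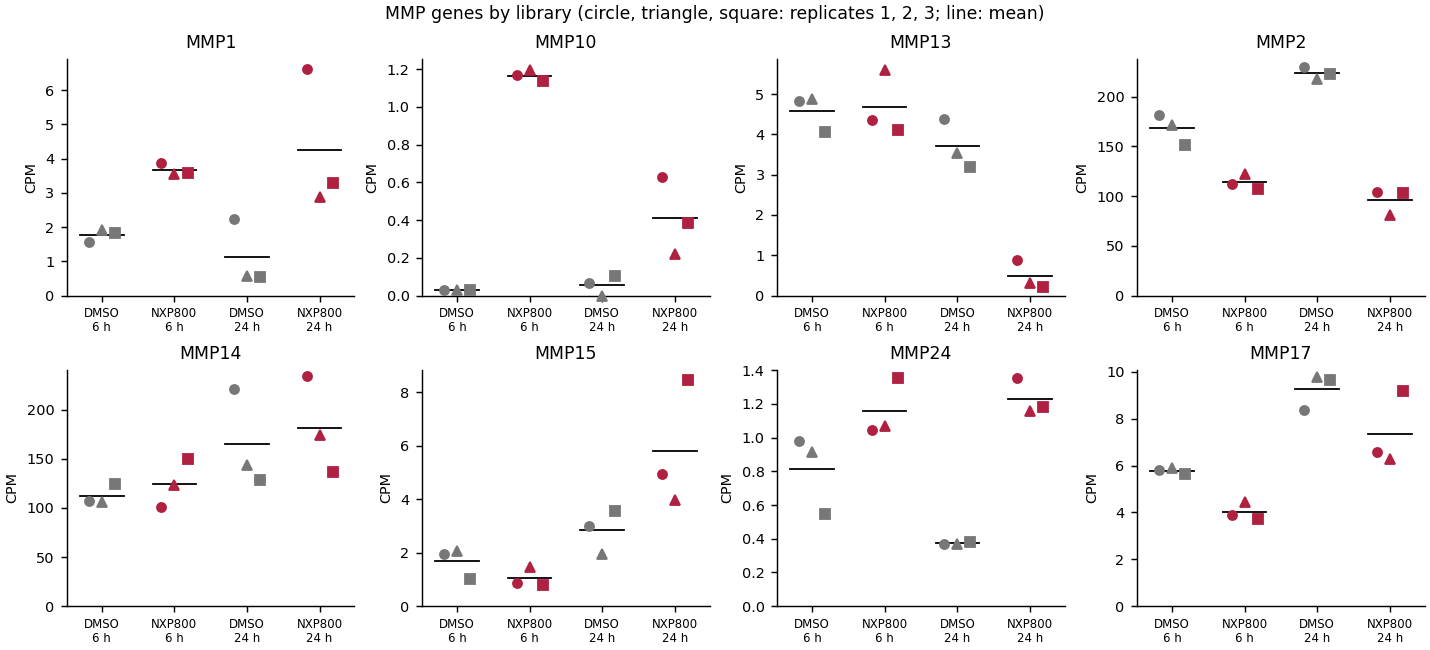
Levels of 8 MMP genes in CPM (y axis, from 0, a different scale in each panel) are drawn by group, DMSO in grey and NXP800 in red, with 1 point per library and a line at the mean. MMP10 rises from near 0 to 1.14 to 1.19 CPM at 6 h, MMP13 drops only at 24 h, and MMP14 shows overlapping groups with replicate 1 highest at 24 h.

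*MMP2*, gelatinase A, which cuts denatured and basement membrane collagen, fell at both times. *MMP2* (chr16:55478830-55506691) was at 181, 172 and 152 CPM with DMSO and at 112, 123 and 107 CPM with NXP800 at 6 h. At 24 h the levels were 230, 218 and 223 CPM with DMSO and 104, 81.0 and 103 CPM with NXP800. No NXP800 library reached a DMSO library at either time. Its log2 fold changes were -0.56 ± 0.09 (edgeR adjusted p = 7.20e-05) and -1.22 ± 0.09 (adjusted p = 1.43e-08), and the fall was deeper at 24 h by -0.66 ± 0.13 on the log2 scale (adjusted p = 0.00138). The other gelatinase, *MMP9*, was near the floor of the data, at 0.0314 to 0.759 CPM, and was not called (adjusted p = 0.989 and 0.320). *MMP9* shares 18.4% of its exon length with another gene.

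Of the membrane-type MMPs, *MMP14* (MT1-MMP), which activates the precursor of MMP2 at the cell surface, was not called at either time. *MMP14* was at 107, 106 and 125 CPM with DMSO and 101, 123 and 150 CPM with NXP800 at 6 h, and at 221, 144 and 129 against 234, 175 and 137 CPM at 24 h. The groups overlapped at both times, and replicate 1 was the highest library of both 24 h groups. Its log2 fold changes of 0.15 ± 0.20 and 0.14 ± 0.19 did not pass the edgeR test (adjusted p = 0.543 and 0.553). Under the block the 24 h p was 0.0433, at a log2 fold change of 0.15.

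*MMP15* (MT2-MMP, chr16:58025754-58046901), another activator of MMP2, rose at 24 h. Its levels were 1.96, 2.05 and 1.03 CPM with DMSO and 0.860, 1.47 and 0.798 CPM with NXP800 at 6 h, and 3.01, 1.95 and 3.57 against 4.95, 3.95 and 8.46 CPM at 24 h. The groups overlapped at 6 h and were separate at 24 h. On the log2 scale it changed by 1.02 ± 0.30 after 24 h (edgeR adjusted p = 0.00778), and the 6 h value was -0.68 ± 0.37 (adjusted p = 0.130, 0.00772 with the block), a difference of 1.71 ± 0.47 (adjusted p = 0.0143). Without NXP800 24 h replicate 3 the 24 h value was 0.65 (adjusted p = 0.0662), and without DMSO 6 h replicate 3 the 6 h value was -0.94 (adjusted p = 0.0452).

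*MMP24* (MT5-MMP), better known from the nervous system, was called higher with NXP800 at 24 h, at a level under 1 CPM with DMSO. It stood at 0.368, 0.370 and 0.378 CPM with DMSO and at 1.35, 1.16 and 1.18 CPM with NXP800, a log2 fold change of 1.72 ± 0.27 (edgeR adjusted p = 5.57e-05). At 6 h it was at 0.982, 0.914 and 0.547 CPM with DMSO and 1.04, 1.07 and 1.35 CPM with NXP800. The 6 h log2 fold change was 0.51 ± 0.24 (edgeR adjusted p = 0.0858). The mean with NXP800 was thus similar at 6 h and 24 h (1.16 and 1.23 CPM). The mean with DMSO was lower at 24 h (0.814 and 0.372 CPM). The strand setting of the counting is not given in the sources used here, and *MMP24* shares 22.1% of its exon length with other genes, among them the overlapping *MMP24OS*, at a mean of 26.7 CPM with DMSO and 22.2 CPM with NXP800 at 24 h. Whether reads of *MMP24OS* add to *MMP24* was not tested, and *MMP24OS* moved the other way (log2 fold change -0.27, adjusted p = 0.0404).

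*MMP17* (MT4-MMP) was lower at both times, at -0.53 ± 0.15 on the log2 scale at 6 h (edgeR adjusted p = 0.00667) and -0.34 ± 0.14 at 24 h (adjusted p = 0.0467). The 24 h call stands at the threshold and the groups overlapped there: it was lost in 14 of the alternatives, among them leaving out NXP800 24 h replicate 2 (-0.21, adjusted p = 0.244) or replicate 1 (-0.26, adjusted p = 0.157), or DMSO 24 h replicate 2 (0.128) or 3 (0.116), and without any of 5 of the 6 h libraries the p lay between 0.0514 and 0.0566. *MMP16* (MT3-MMP) was at 0.28 ± 0.12 at 6 h (adjusted p = 0.0721, 0.0258 with the block) and -0.20 ± 0.13 at 24 h (adjusted p = 0.194). Without NXP800 24 h replicate 2 or 3, which leaves the 6 h libraries in place, the 6 h p of *MMP16* was 0.0409 or 0.0383. *MMP25* (MT6-MMP) was at -0.50 and -0.32 and was not called (adjusted p = 0.263 and 0.480). *MMP25* was at 0.154 to 0.535 CPM and shares 30.6% of its exon length with other genes.

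The remaining tested MMPs were low. *MMP11*, stromelysin 3, was at 0.549 to 0.639 CPM with DMSO and 0.231 to 0.287 CPM with NXP800 at 24 h, a log2 fold change of -1.23 ± 0.33 (edgeR adjusted p = 0.00436). Its counts were 13, 19 and 15 with DMSO and 8, 13 and 6 with NXP800 at 6 h. At 24 h they were 19, 19 and 16 against 7, 8 and 9. *MMP11* passed the filter through its DMSO libraries alone, so it could only be tested because it was high there. Its 6 h value of -0.82 ± 0.33 had an adjusted p of 0.0466 and was lost in 16 alternatives, among them DESeq2 (adjusted p = 0.198) and leaving out any one library other than NXP800 6 h replicate 2 (edgeR adjusted p from 0.0510 to 0.187). *MMP19* fell at 24 h by 0.76 ± 0.23 on the log2 scale (adjusted p = 0.0111), with an edgeR adjusted p of 0.0664 without DMSO 24 h replicate 2 and 0.0543 without NXP800 24 h replicate 3. *MMP19* shares 17.6% of its exon length with a neighbouring gene.

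Most changes of the ADAM genes were under 2-fold. Of 11 tested, 2 were called higher and 4 lower at 6 h, and again 2 and 4 at 24 h (54.5% called at each time, near the 52.8% and 56% of all genes), and *ADAM22* at 6 h was the one call of at least 2-fold. The sheddases differed: *ADAM17*, which releases TNF and EGF receptor ligands, rose, and *ADAM10*, the main sheddase of Notch and cadherins, fell. *ADAM17* was at 18.3, 19.7 and 17.8 CPM with DMSO and 25.0, 27.5 and 26.1 CPM with NXP800 at 6 h, and at 18.6, 19.1 and 20.1 against 22.9, 26.3 and 24.4 CPM at 24 h. *ADAM10* was at 98.4, 93.1 and 84.9 CPM against 77.4, 81.2 and 73.7 CPM at 6 h, and at 97.4, 97.2 and 99.9 against 77.6, 83.4 and 84.6 CPM at 24 h. Neither gene showed overlap at either time. The log2 fold changes of *ADAM17* were 0.50 ± 0.08 and 0.35 ± 0.08 (edgeR adjusted p = 6.41e-05 and 0.00131), and those of *ADAM10* -0.25 ± 0.06 and -0.26 ± 0.06 (adjusted p = 0.00399 and 0.00259).

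*ADAM9*, the ADAM with most reads per kb, was called lower at 24 h alone. It was at 244, 242 and 233 CPM with DMSO and 247, 265 and 252 CPM with NXP800 at 6 h, and at 232, 243 and 255 against 182, 222 and 193 CPM at 24 h. The groups were apart both times, with log2 fold changes of 0.09 ± 0.07 (edgeR adjusted p = 0.315) and -0.29 ± 0.07 (adjusted p = 0.00219) and with a difference of -0.38 ± 0.10 (adjusted p = 0.0107, 0.0548 with library size alone as the scaling). *ADAM19* rose at 6 h, from 70.0, 70.4 and 71.1 CPM to 82.4, 106 and 95.7 CPM (0.43 ± 0.10, adjusted p = 0.0015), and at 24 h was at -0.05 ± 0.10 (adjusted p = 0.685). *ADAM12*, a protease of mesenchymal and tumour cells, rose at 24 h from 16.4, 10.8 and 13.9 to 25.0, 21.3 and 20.6 CPM (0.70 ± 0.13, adjusted p = 0.000191). At 6 h *ADAM12* was at 0.29 ± 0.12 (adjusted p = 0.0525, 0.00527 with the block), with the groups apart, and without 1 of NXP800 6 h replicate 1, DMSO 24 h replicate 1 or 2, or NXP800 24 h replicate 1 or 2 the p lay between 0.0213 and 0.0466.

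*ADAM15* was lower at 6 h, at -0.27 ± 0.09 (edgeR adjusted p = 0.0159), but not without DMSO 6 h replicate 3 (0.0788) or NXP800 6 h replicate 1 (0.0820), and was at 0.01 ± 0.08 at 24 h. *ADAM8* had log2 fold changes of 0.03 and -0.03 (adjusted p = 0.841 and 0.824), signs that turn with single libraries. *ADAM20*, close in sequence to *ADAM21* and at 0.502 to 1.87 CPM, was at 0.58 ± 0.32 at 6 h (adjusted p = 0.139, 0.0211 with the block).

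*ADAM11*, *ADAM22* and *ADAM23*, of the ADAMs without protease activity known from the nervous system, were lower where called. *ADAM22* was at 2.12, 2.46 and 2.19 CPM with DMSO and 1.07, 1.16 and 0.860 CPM with NXP800 at 6 h. The 24 h levels were 1.44, 1.68 and 2.03 against 0.759, 0.878 and 1.02 CPM. The groups of *ADAM22* did not overlap, with log2 fold changes of -1.12 ± 0.20 (edgeR adjusted p = 0.000188) and -0.95 ± 0.21 (adjusted p = 0.00122). *ADAM23* fell from 4.63, 4.10 and 4.98 to 2.49, 2.57 and 2.49 CPM at 6 h (-0.86 ± 0.15, adjusted p = 0.000139) and was at 5.49, 5.01 and 5.49 against 5.42, 5.46 and 7.34 CPM at 24 h (0.19 ± 0.14, adjusted p = 0.257). The 2 responses of *ADAM23* differed by 1.05 ± 0.20 (adjusted p = 0.00131). *ADAM11* was lower at 24 h, at -0.63 ± 0.20 (adjusted p = 0.0122), with an edgeR adjusted p of 0.0629 without DMSO 24 h replicate 2 and 0.0567 without NXP800 24 h replicate 2.

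The ADAMTS genes moved in both directions. Of 12 tested, 3 were called higher and 5 lower at 6 h, and 2 higher and 5 lower at 24 h (66.7% and 58.3% called, beside 52.8% and 56% of all genes). The aggrecan- and versican-cutting *ADAMTS9* (chr3:64515654-64688000) was at 8.43, 9.71 and 9.17 CPM with DMSO and at 3.16, 4.44 and 3.53 CPM with NXP800 at 6 h. By 24 h the values were 13.5, 14.6 and 11.2 against 4.82, 4.39 and 4.40 CPM. Its groups were far apart at both times, with log2 fold changes of -1.29 ± 0.14 (edgeR adjusted p = 1.06e-06) and -1.53 ± 0.13 (adjusted p = 9.63e-08). *ADAMTS15*, of the same substrate group, fell from 6.27, 8.01 and 7.32 to 3.41, 3.67 and 3.84 CPM at 6 h and from 8.80, 7.30 and 8.48 to 4.49, 4.70 and 4.88 CPM at 24 h (-0.98 ± 0.13 and -0.80 ± 0.12, adjusted p = 7.65e-06 and 4.04e-05). *ADAMTS1*, also a versican protease, was lower at 6 h alone, at -0.56 ± 0.20 (adjusted p = 0.0264), with an edgeR adjusted p of 0.143 without DMSO 6 h replicate 3 and 0.135 without NXP800 6 h replicate 2.

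*ADAMTS12* (chr5:33523535-33891990), whose promoter is printed above and which is known to cut cartilage oligomeric matrix protein, fell at both times and further at 24 h. It was at 34.4, 34.6 and 32.7 CPM with DMSO and 16.7, 20.9 and 18.8 CPM with NXP800 at 6 h. At 24 h the values were 36.2, 40.1 and 46.8 against 14.3, 14.7 and 18.2 CPM. The groups were apart at both times, with log2 fold changes of -0.85 ± 0.11 (edgeR adjusted p = 7.83e-06) and -1.38 ± 0.11 (adjusted p = 3.38e-08). The difference of -0.53 ± 0.15 had an adjusted p of 0.0193, and of 0.0578 without NXP800 6 h replicate 2 and 0.0526 without DMSO 24 h replicate 3. *ADAMTS3*, a procollagen N-proteinase that also activates VEGF-C, was at 5.64, 5.96 and 6.47 against 2.73, 2.91 and 3.44 CPM at 6 h and at 7.29, 7.10 and 7.28 against 3.40, 3.89 and 2.42 CPM at 24 h. *ADAMTS3* was thus lower in every NXP800 library, by -0.99 ± 0.15 and -1.16 ± 0.15 on the log2 scale (adjusted p = 5.22e-05 and 8.51e-06), while *ADAMTS2*, the procollagen N-proteinase of type I collagen, was at -0.14 and 0.21 and not called (adjusted p = 0.573 and 0.348).

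*ADAMTS6* and *ADAMTS16* rose at 6 h. *ADAMTS6* (chr5:65148738-65481920), which acts on microfibrils and cell adhesion, was at 3.71, 4.13 and 4.44 CPM with DMSO and at 11.4, 14.3 and 11.3 CPM with NXP800 at 6 h. After 24 h it stood at 3.68, 3.60 and 3.88 against 2.11, 3.10 and 1.28 CPM. All 3 NXP800 libraries were above DMSO at 6 h, by a mean of 3.01-fold, and all 3 were below it at 24 h. It rose by 1.59 ± 0.19 on the log2 scale (edgeR adjusted p = 3.72e-06) and then was at -0.78 ± 0.22 (adjusted p = 0.00684), with a difference of -2.37 ± 0.29 (adjusted p = 2.80e-05).

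*ADAMTS16* (chr5:5140330-5320304), a fibronectin protease, was at 7.45, 5.77 and 5.77 CPM with DMSO and 18.8, 18.4 and 14.2 CPM with NXP800 at 6 h. Levels at 24 h were 4.48, 4.17 and 3.74 against 5.22, 6.77 and 4.63 CPM. The groups were far apart at 6 h and close at 24 h, with log2 fold changes of 1.44 ± 0.15 (edgeR adjusted p = 8.88e-07) and 0.42 ± 0.17 (adjusted p = 0.0409), and a difference of -1.01 ± 0.23 (adjusted p = 0.00366). The 24 h call of *ADAMTS16* was lost without DMSO 24 h replicate 2 (0.0793) or 3 (0.130) or NXP800 24 h replicate 2 (0.186, at a log2 fold change of 0.28). *ADAMTS17*, at 0.516 to 1.5 CPM, was called higher at 0.70 ± 0.27 and 0.87 ± 0.29 (adjusted p = 0.0377 and 0.0168). *ADAMTS17* lost the 6 h call with DESeq2 (adjusted p = 0.0860) and without DMSO 6 h replicate 1 or 3 or NXP800 6 h replicate 2 or 3 (edgeR adjusted p from 0.0612 to 0.160), and the 24 h call without DMSO 24 h replicate 3 (0.0562) or NXP800 24 h replicate 3 (0.108). *ADAMTS7* (-0.39 and 0.31), *ADAMTS10* (-0.70 and 0.27) and *ADAMTS13* (0.11 and 0.76), the protease of von Willebrand factor, were not called, all at low levels. For *ADAMTS13* at 24 h the adjusted p was 0.125, 0.00176 with the block and 0.00559 without DMSO 24 h replicate 2 (log2 fold change 1.53), but 0.736 without NXP800 24 h replicate 2 (0.18).

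**Figure D3:**
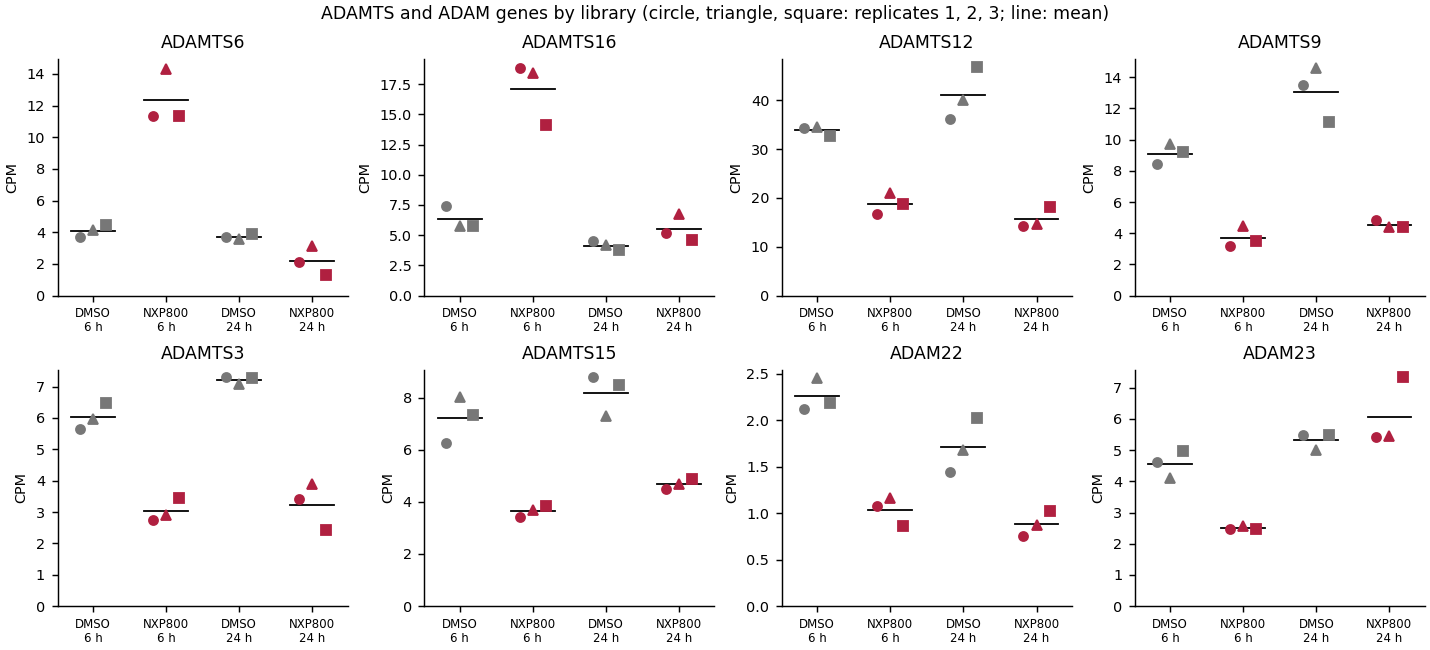
Levels of 6 ADAMTS and 2 ADAM genes in CPM (y axis, from 0, a different scale in each panel) are drawn by group, DMSO in grey and NXP800 in red, with 1 point per library and a line at the mean. ADAMTS6 lies above DMSO at 6 h and below it at 24 h, ADAMTS12, ADAMTS9, ADAMTS3, ADAMTS15 and ADAM22 lie below DMSO at both times, and ADAM23 does so at 6 h only.

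The inhibitors did not move together. *TIMP2* and *TIMP4* were called lower at both times, and *TIMP1* and *TIMP3* at neither. *TIMP2* (chr17:78852977-78925387), which inhibits MMP2 and also takes part in its activation by MMP14, was at 207, 202 and 186 CPM with DMSO and 120, 135 and 107 CPM with NXP800 at 6 h. The 24 h libraries held 237, 217 and 252 against 174, 163 and 225 CPM. The groups were apart at 6 h and overlapped at 24 h. *TIMP2* changed by -0.72 ± 0.11 (edgeR adjusted p = 3.87e-05) and -0.33 ± 0.11 (adjusted p = 0.0153) on the log2 scale. The 24 h call was lost without DMSO 24 h replicate 3 (0.0637) or NXP800 24 h replicate 1 (0.0636) or 2 (0.119) and with library size alone (0.0586). The responses of *TIMP2* differed by 0.39 ± 0.15 (adjusted p = 0.0728, 0.00150 with the block, 0.0416 without NXP800 6 h replicate 2, 0.0269 without NXP800 24 h replicate 2).

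*TIMP4* was at 5.16, 5.23 and 4.68 CPM with DMSO and 2.7, 3.30 and 3.59 CPM with NXP800 at 6 h, and at 4.01, 4.27 and 3.98 against 3.70, 2.57 and 2.46 CPM at 24 h. It was below DMSO in every NXP800 library, by -0.65 ± 0.16 (edgeR adjusted p = 0.00272) and -0.49 ± 0.17 (adjusted p = 0.0181), and the 24 h p was 0.0531 without DMSO 24 h replicate 2, 0.0878 without NXP800 24 h replicate 2 and 0.0774 without NXP800 24 h replicate 3. *TIMP4* shares 14.2% of its exon length with *SYN2*.

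*TIMP1*, the most abundant per kb, was at 95, 92.3 and 88.1 CPM with DMSO and 108, 98.8 and 102 CPM with NXP800 at 6 h. At 24 h it was at 141, 129 and 113 against 195, 131 and 124 CPM, with replicate 1 the highest library of both groups. The groups were apart at 6 h and overlapped at 24 h. Its log2 fold changes of 0.16 ± 0.13 and 0.23 ± 0.13 were not called (edgeR adjusted p = 0.297 and 0.137), and under the block the p was 0.0374 and 0.00956. Without NXP800 24 h replicate 1 the 24 h value was -0.01, and without NXP800 24 h replicate 2 or 3 it was 0.35 (adjusted p = 0.0413 and 0.0275).

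*TIMP3*, the matrix-bound inhibitor that also blocks ADAM17 and ADAMTSs, was at 174, 186 and 132 CPM with DMSO and 136, 159 and 114 CPM with NXP800 at 6 h, and at 156, 197 and 149 against 167, 121 and 98.9 CPM at 24 h. The groups overlapped at both times. The log2 fold changes were -0.27 ± 0.17 and -0.37 ± 0.17 (edgeR adjusted p = 0.20 and 0.0720), against 0.0231 and 0.00174 with the block. Without NXP800 24 h replicate 1 the 24 h value was -0.60 (adjusted p = 0.00508).

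**Figure D4:**
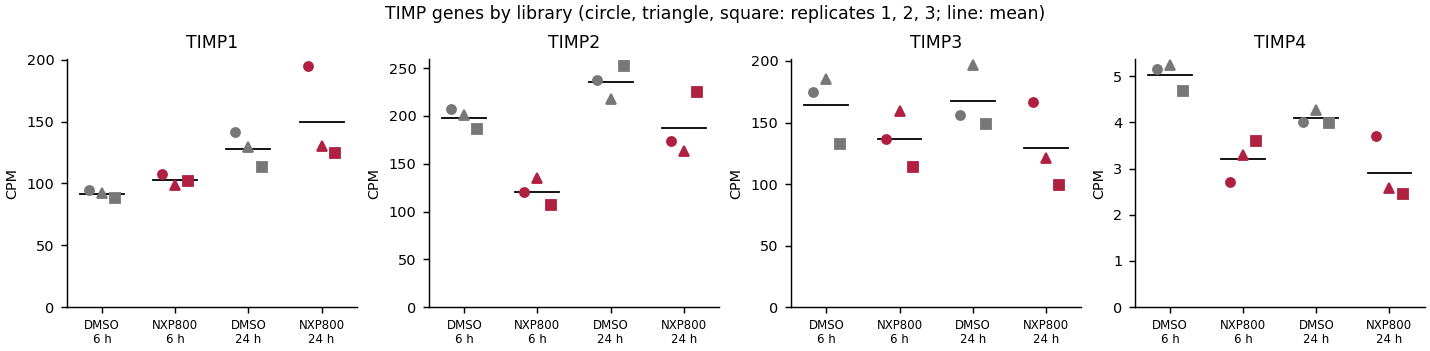
Levels of the 4 TIMP genes in CPM (y axis, from 0, a different scale in each panel) are drawn by group, DMSO in grey and NXP800 in red, with 1 point per library and a line at the mean. TIMP2 and TIMP4 lie below DMSO at 6 h with no overlap, and in TIMP1 replicate 1 is the highest library of both 24 h groups.

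Summed by family, the ADAMTS reads were the furthest apart in proportion, at 24 h. The ADAMTS sum was 83.1 to 90.7 CPM in the DMSO libraries at 24 h and 45.6 to 51.9 CPM with NXP800, and 75.7 to 77.5 against 63.7 to 74.1 CPM at 6 h. The MMP sum was 381 to 484 CPM against 271 to 370 CPM at 24 h, where *MMP2* and *MMP14* hold most of it. The TIMP sum was 411 to 485 against 326 to 396 CPM at 6 h and 518 to 548 against 418 to 540 CPM at 24 h, overlapping at 24 h. The ADAM sum was 504 to 520 against 517 to 575 CPM at 6 h and 526 to 555 against 462 to 516 CPM at 24 h, and the MMP sum at 6 h was 304 to 317 against 244 to 288 CPM. Most of the ADAMTS difference at 24 h is *ADAMTS12*, whose mean was 41.0 CPM with DMSO and 15.8 CPM with NXP800. These sums are given without a test.

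The response at 24 h differed from that at 6 h in 10 of the 40 members by the test of the difference itself (25%; 25.8% of all genes tested). In 3 the 24 h response was the higher (12% of all genes), *MMP15*, *ADAM23* and *MMP24*, and in 7 the lower (13.8% of all genes), *MMP13*, *ADAMTS6*, *ADAMTS16*, *MMP2*, *ADAMTS12*, *ADAM19* and *ADAM9*. The largest of these 10 were those of *MMP13* and *ADAMTS6*, at -2.99 and -2.37 on the log2 scale. With library size alone as the scaling, 5 members were called with the higher and 6 with the lower response at 24 h (15.4% and 10.5% of all genes), so that split depends on the scaling. The block gave 15 called members, 7 higher and 8 lower, with 39.3% of all genes called. Gained with it were *MMP1*, *ADAM12*, *TIMP2*, *ADAM15* (0.27, edgeR adjusted p = 0.0152 with the block and 0.103 without) and *MMP16* (-0.48, adjusted p = 0.0183 and 0.0599).

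The 27 members that were not tested had few reads. In 25 of them no library exceeded 9 counts, and 6 (*ADAM5*, *ADAM6*, *ADAM7*, *ADAM30*, *MMP26* and *MMP27*) were at 0 in all 12 libraries. Besides *MMP3*, *ADAMTS14*, a procollagen N-proteinase, reached 10 counts: it had 2, 5 and 2 counts with DMSO and 9, 15 and 13 with NXP800 at 24 h, a ratio of 3.90 (95% interval 1.85 to 9.19), and 3, 2 and 6 against 2, 8 and 2 counts at 6 h.

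Other genes of the system changed in both directions. Their list was written from general knowledge, with earlier results of these data known. Of 48 listed genes in the files 38 were tested, and 18 were called at 6 h (47.4%), 10 higher and 8 lower, and 28 at 24 h (73.7%), 14 higher and 14 lower, beside 52.8% and 56% of all genes. In the plasminogen system, whose product plasmin activates several MMP precursors, *PLAU*, urokinase, rose by 1.15 ± 0.11 on the log2 scale at 6 h (edgeR adjusted p = 4.27e-07) and by 0.74 ± 0.11 at 24 h (adjusted p = 3.33e-05), and *PLAT*, the tissue-type activator, fell by 1.81 ± 0.17 at 24 h (adjusted p = 1.98e-07). Among the 5 tested genes of this group, 3 were called at 6 h (60%, beside 52.8% of all genes), all higher. All 5 were called at 24 h (100%, beside 56% of all genes), 4 higher and 1 lower.

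Of 8 tested partners of ADAM10 and ADAM17, 4 were called at each time (50%, beside 52.8% and 56% of all genes). They were 1 higher and 3 lower at 6 h, and 2 higher and 2 lower at 24 h. *TSPAN15*, a tetraspanin that carries ADAM10 and directs its substrates, fell by 1.37 ± 0.11 at 6 h and by 2.51 ± 0.12 at 24 h (edgeR adjusted p = 7.46e-08 and 1.43e-10), to a mean of 10.6 CPM from 60.9 CPM at 24 h. Of 4 tested convertases that cut metalloproteinase precursors, 1 was called at 6 h (25%, beside 52.8% of all genes), higher. At 24 h 3 were called (75%, beside 56%), 1 higher and 2 lower. *FURIN*, under the size set for naming, rose by 0.63 at 6 h (edgeR adjusted p = 7.46e-06) and was not called at 24 h (0.329). *PCSK6* rose by 1.23 ± 0.14 at 24 h (adjusted p = 1.33e-06). *PCSK5* and *PCSK7*, also under that size, fell by 1.00 and 0.31 at 24 h (adjusted p = 2.72e-05 and 0.000639). *LRP1*, the endocytic receptor that clears MMPs and TIMPs, fell by 1.28 ± 0.12 at 24 h (adjusted p = 1.51e-07), and the inhibitor *A2M* fell by 1.5 ± 0.56 (adjusted p = 0.0299) at a mean under 1 CPM.

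Among procollagen C-proteinases and their enhancers, *PCOLCE* fell by 1.75 ± 0.10 at 24 h (edgeR adjusted p = 7.86e-10), and *TLL2* rose by 1.20 ± 0.40 at a mean of 0.420 CPM (adjusted p = 0.0187). The mean of *TLL2* was 0.270, 0.215 and 0.180 CPM in the DMSO 6 h, NXP800 6 h and DMSO 24 h groups. It could thus be tested only because it was high with NXP800 at 24 h, and it counts among the listed genes called. Of 4 tested substrates, all were called at 24 h (100%, beside 56% of all genes), 1 higher and 3 lower. *EFEMP1*, fibulin-3, fell by 2.74 ± 0.15 (adjusted p = 6.18e-10) and *BCAN*, brevican, rose by 1.40 ± 0.37 (adjusted p = 0.00436) at a mean of 0.778 CPM. *FN1*, which did not reach a log2 fold change of 1 and is named, after its values were seen, as a substrate of ADAMTS16, rose by 0.50 ± 0.13 at 6 h (adjusted p = 0.00335) and fell by 0.78 ± 0.13 after 24 h (adjusted p = 7.84e-05).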

How the data were processed

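Polyadenylated RNA of 12 libraries was read by strand-specific sequencing on the DNBSEQ platform. The authors deposited 1 table of raw counts per library, reads per RefSeq gene on hg38 (GRCh38.p14), made per the labels with fastp 0.20.1, STAR 2.7.5a and HTSeq 0.12.4 and not normalized. The strand setting of the counting is not given in the sources used here. How reads on exons shared by a gene and its antisense partner were assigned is therefore not known. Counter entries without a gene entered neither library sizes nor tests. Of the reads of a library, 2.73 to 8.14% lay on no gene, 2.10 to 2.43% were ambiguous and 1.86 to 3.37% aligned to several places. Replicates of a group differed by more than sampling noise (chi-square divided by degrees of freedom 7.36 to 26.3, for genes of 20 counts or more), so all 12 were kept apart.

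Genes were kept with filterByExpr, scaled with TMM and fitted with the quasi-likelihood test of edgeR 4.0.16 (limma 3.58.1, R 4.3.3) in one model of the 4 groups on all 12 libraries. P-values were adjusted by Benjamini-Hochberg over all 15979 genes tested, and a gene was called at an adjusted p below 0.05. Levels are CPM with TMM scaling, and fold changes are edgeR's log2 values. Their standard errors were derived from the test, as the size of the log2 fold change divided by the square root of its F statistic. Exon lengths come from GENCODE v44, coordinates and promoters from RefSeq. The fits were checked on simulated data.

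Members and lists were chosen with earlier results of these data known. Any tested member could be named, and levels in every library are given for those called with a log2 fold change of at least 1 and a mean of at least 1 CPM, for every TIMP, and for further members chosen after their values were seen. Replicate numbers pair the libraries within a time: deviations from the group mean correlated at 0.159 to 0.329 for 6 pairs of the same number and at -0.268 to 0.058 for 12 pairs of other numbers. Values with the number as a block within each time are given where a call changes. Other alternatives were DESeq2 1.42.0 size factors and its Wald test, library size alone, other filters, the 6 libraries of a time alone, each library left out and an adjusted p below 0.01. A planned search of protein sequences for the zinc-binding motif was not run. Some listed genes are not reported here.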

Additional observations from a re-analysis of the deposited data

Results flagged for a closer look

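In 10 members the response to NXP800 at 24 h differed from that at 6 h in the edgeR test of the difference (adjusted p below 0.05). As 24 h minus 6 h on the log2 scale, the difference was -2.99 for *MMP13*, -2.37 for *ADAMTS6*, -1.01 for *ADAMTS16*, -0.66 for *MMP2*, -0.53 for *ADAMTS12*, -0.48 for *ADAM19* and -0.38 for *ADAM9*. It was 1.71 for *MMP15*, 1.21 for *MMP24* and 1.05 for *ADAM23*. The mean of *MMP24* with NXP800 was 1.16 CPM at 6 h and 1.23 CPM at 24 h. With DMSO its mean was 0.814 and 0.372 CPM. *ADAMTS6* was called in opposite directions at the 2 times, while *MMP13* and *MMP15* were called at 24 h alone and *ADAM23* at 6 h alone. The difference of *ADAM19* was lost without NXP800 6 h replicate 2 (-0.39, adjusted p = 0.0540), that of *ADAM9* with library size alone (-0.30, adjusted p = 0.0548) and that of *ADAMTS12* without NXP800 6 h replicate 2 (0.0578) or DMSO 24 h replicate 3 (0.0526). That of *MMP24* was lost with DESeq2 (0.0601) and without any one of DMSO 6 h replicate 1 or 2, NXP800 6 h replicate 1 or 2 or DMSO 24 h replicate 2 (edgeR adjusted p from 0.0504 to 0.0684). Conversely, without DMSO 24 h replicate 1 the difference of *MMP1* was 1.86 (adjusted p = 0.00744) and that of *ADAM12* 0.55 (adjusted p = 0.0224). With the block these were 0.92 (adjusted p = 0.00977) and 0.42 (adjusted p = 0.0115). The 6 h and 24 h libraries are separate sets, so time and library set cannot be told apart.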

How the results depend on the processing

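Of the 55 called values for single members, 38 kept their call at 0.05 under every alternative fit that gave a value (17 to 19 each) and 0 turned direction, and 37 of these 38 had an adjusted p below 0.01. For 6 called values an alternative gave no value, since the gene was not tested there. With an adjusted p below 0.01 the members whose responses differ numbered 5 in place of 10, since fewer pass a stricter threshold. The counts of members called at 6 h, at 24 h and for the difference ran from 17 to 22, from 20 to 25 and from 9 to 12 when each library was left out in turn (45.6 to 53.1%, 49.6 to 55.1% and 19.6 to 25.6% of all genes), and were 27, 28 and 15 with the replicate block (62.3, 65.2 and 39.3% of all genes). No called member lost its call under the block. With library size alone, *ADAM19* and *ADAM8* at 24 h had log2 fold changes of 0.0413 and 0.0643. With single libraries left out, the sign also turned for uncalled values, which ranged from -0.0663 to 0.10 for *ADAM15* at 24 h, -0.11 to 0.0635 for *ADAM19* at 24 h, -0.0450 to 0.11 for *ADAM8* at 6 h and -0.10 to 0.10 at 24 h, -0.24 to 0.00723 for *ADAMTS1* at 24 h, -0.34 to 0.0117 for *ADAMTS2* at 6 h, -0.11 to 0.12 for *MMP13* at 6 h, -0.00428 to 0.28 for *MMP14* at 6 h and -0.0810 to 0.41 at 24 h, -0.15 to 0.0107 for *MMP19* at 6 h, -0.35 to 0.40 for *MMP9* at 6 h and -0.00565 to 0.35 for *TIMP1* at 24 h. Members under 1 CPM have few reads, which limits what can be detected.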
